A study of Rattus norvegicus with 4 samples.

Results

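Synovium that had received human SyMSCs (SyMSC 1) was compared with the PBS library whose title carries the same prefix, Sy (PBS 2), with 1 library on each side. A gene was taken up when it reached 5 TPM or more in either library, which 10827 of the 17899 rat genes of the table did (60.5%). TPM is a length-normalised share of a library's transcripts, so it can be compared between genes and says nothing of the amount of tissue. Each comparison below is the log2 ratio of TPM + 1, and a gene is called higher or lower when that ratio reaches 2-fold with at least 5 TPM on the higher side. With 1 library against 1 there is no test, no error on a ratio and no p-value. The spread it is read against is the difference between the 2 PBS libraries, PBS 2 and PBS 1.

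All 4 libraries came from rat synovium with the disease label osteoarthritis. SyMSC 1 had received human SyMSCs, AdMSC 1 had received human AdMSCs (mesenchymal stem cells by the usual reading of the abbreviations, which the labels do not spell out), and PBS 1 and PBS 2 had received PBS, a salt buffer. Tissue was collected on the day after the human cells went in, and for PBS the interval is unstated. The titles call the PBS libraries Ad mix and Sy mix, a word the labels leave unexplained, and neither strain, age, joint, cell dose nor the number of animals behind a library is given. The human cells were thus placed in the tissue of another species. How reads of the human cells were handled is not given. The values of SyMSC 1 and AdMSC 1 may therefore hold some of those reads, which was not tested. Read depth is unknown. Between 12582 (SyMSC 1) and 13155 (PBS 1) genes reached 1 TPM.

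Synovium consists of a surface lining of macrophages and fibroblasts over a sublining of fibroblasts, vessels, fat and nerve. The lining fibroblasts make lubricin and hyaluronan, the lubricants of the joint. Foreign or damaged material in a joint is met first by resident macrophages, whose CXC chemokines draw neutrophils from the blood and whose CC chemokines draw monocytes. Genes characteristic of synovium were present: Prg4, which encodes lubricin, was at 2448 TPM in SyMSC 1, 3765 TPM in PBS 2, 3930 TPM in PBS 1 and 4192 TPM in AdMSC 1. Transcripts of tendon, skeletal muscle and fat were also present in the PBS libraries and are given below with their values.

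Against PBS 2, 1393 genes (12.9%) were at least 2-fold higher in SyMSC 1 and 1634 (15.1%) were at least 2-fold lower, 28.0% in all. Between PBS 2 and PBS 1 the same ratio separated 1.03% of the same genes in the higher direction and 0.961% in the lower. At 4-fold the shares were 4.06% higher and 5.06% lower (9.13% in all), beside 0.351% and 0.231% between the PBS libraries (0.582% in all). Genes that passed 2-fold in the same direction against PBS 1 as well, called beyond both PBS libraries below, numbered 1145 higher (10.6%) and 1373 lower (12.7%). At 4-fold 3.52% were higher and 3.85% lower beyond both (7.37% in all). The 2-fold genes beyond both were 82.2% of the genes higher and 84.0% of the genes lower than in PBS 2. The log2 ratio to PBS 2 had a median of 0.02 and an SD over genes of 1.17, and its size was under 2.53 in 95% of genes. For PBS 2 over PBS 1 the median was -0.02, the SD 0.38 and the corresponding size 0.62. The spread was wide at every level: between 5 and 20 TPM the SD was 1.02 beside 0.40 for the PBS libraries, and at 100 TPM or more it was 1.55 beside 0.40. Vps37b, at 29.9 against 14.4 TPM, lay just inside the 2-fold limit on the higher side and Rnf128, at 5.17 against 2.09 TPM, just outside. Prdx4, at 72.7 against 146 TPM, and Chpf, at 28.6 against 58.2 TPM, lay just inside and just outside on the lower side.

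**Figure D1:**
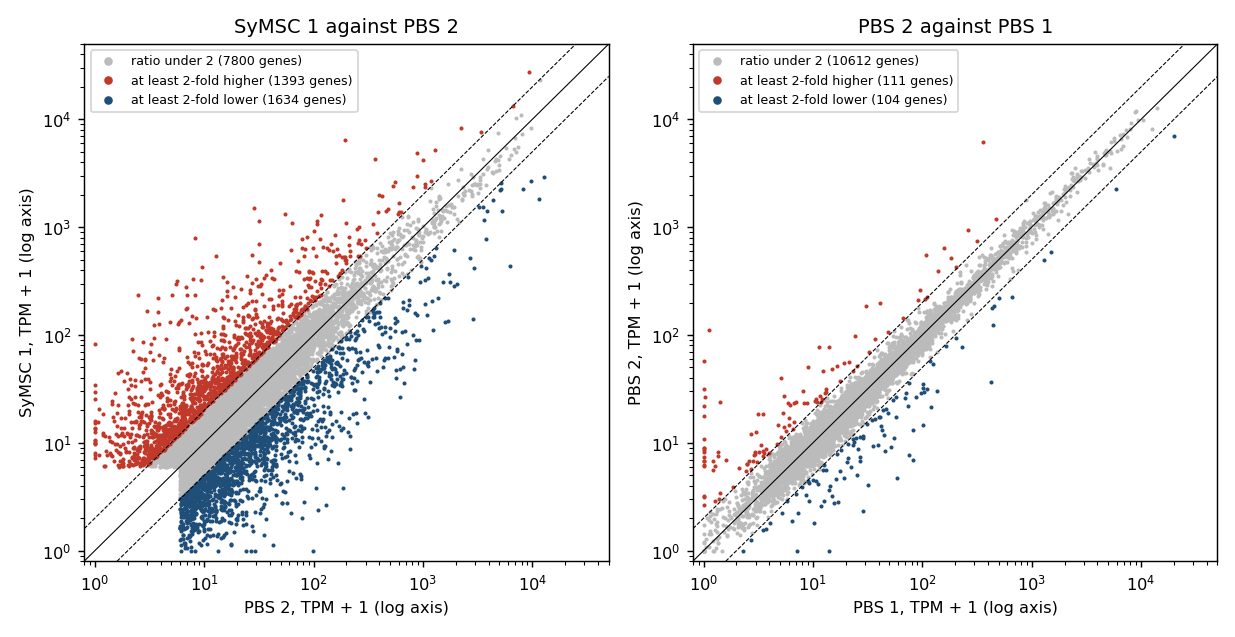
Level of each of the 10827 genes as TPM + 1 on log axes, SyMSC 1 against PBS 2 on the left and PBS 2 against PBS 1 on the right. The solid line marks equal levels and the dashed lines 2-fold; 1393 genes lie above and 1634 below the dashed lines on the left, 111 and 104 on the right. The empty corner at low values on the left is the 5 TPM limit.

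The genes called higher held 23.6% of all TPM in SyMSC 1 and 6.59% in PBS 2, with 6.61% in PBS 1 and 20.2% in AdMSC 1. Those called lower held 5.98% in SyMSC 1 and 22.9% in PBS 2. The 7800 genes within 2-fold held nearly equal shares, 69.9% and 69.8%. The 10 largest gains in TPM, of which Apoe and Hba1 were within 2-fold of PBS 2, held 11.1% of SyMSC 1 and 4.30% of PBS 2, and the 10 largest losses 1.69% and 7.08%.

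Lysozyme, an antibacterial enzyme of macrophages and neutrophils encoded by Lyz2, was the largest gain, with 27210 TPM in SyMSC 1, 9237 TPM in PBS 2, 8163 TPM in PBS 1 and 19301 TPM in AdMSC 1 (log2 ratio to PBS 2, 1.56). Apoe, which encodes the lipid carrier apolipoprotein E, was at 23281, 11843, 9038 and 19209 TPM in the same order. Its log2 ratio of 0.98 lay just under the 2-fold limit. Ferritin, the iron store, gained in both chains: Ftl1 was at 13256 TPM in SyMSC 1 against 6595 and 6624 TPM in PBS 2 and PBS 1, and Fth1 at 8325 against 2221 and 2240 TPM. Ftl1 only just passed the 2-fold limit, with log2 ratios of 1.007 to PBS 2 and 1.001 to PBS 1. Spp1, which encodes the secreted phosphoprotein osteopontin, was at 6402 TPM against 193 and 207 TPM, with 10022 TPM in AdMSC 1. The remaining gains were Gapdh of glycolysis, the adaptors Tyrobp and Fcer1g through which myeloid receptors signal, the macrophage glycoprotein gene Gpnmb, and Hba1. Of the 10, 7 were beyond both PBS libraries, and Apoe, Gapdh and Hba1 were not. The haemoglobin gene Hba1 was at 10295 TPM in SyMSC 1, 7064 TPM in PBS 2 and 20161 TPM in PBS 1, so SyMSC 1 lay between the PBS libraries.

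Matrix genes of fibroblasts led the losses. Sparc, which encodes a collagen-binding glycoprotein, was at 2914 TPM in SyMSC 1, 12856 TPM in PBS 2, 14128 TPM in PBS 1 and 3999 TPM in AdMSC 1. Cst3, which encodes the protease inhibitor cystatin C, was at 1825, 11586, 8762 and 1978 TPM. Type I and type III collagen stood lower by the same log2 ratio, -1.86: Col1a1 was at 2257 TPM against 8181 and 12541 TPM, and Col3a1 at 2700 TPM against 9810 and 10508 TPM. Bgn and Dcn encode the small proteoglycans biglycan and decorin. Bgn was at 781 TPM against 3782 and 4447 TPM, and Dcn at 2194 TPM against 5057 and 5174 TPM. Mfap4, an elastic fibre gene, was at 140 TPM against 2872 and 3080 TPM. In each of these both PBS libraries lay more than 2-fold above SyMSC 1, though they differed from each other for Col1a1 and Cst3. LOC100909585 differed: it was at 437 TPM in SyMSC 1, 6216 TPM in PBS 2, 356 TPM in PBS 1 and 27.1 TPM in AdMSC 1, so PBS 2 alone was high.

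**Figure D2:**
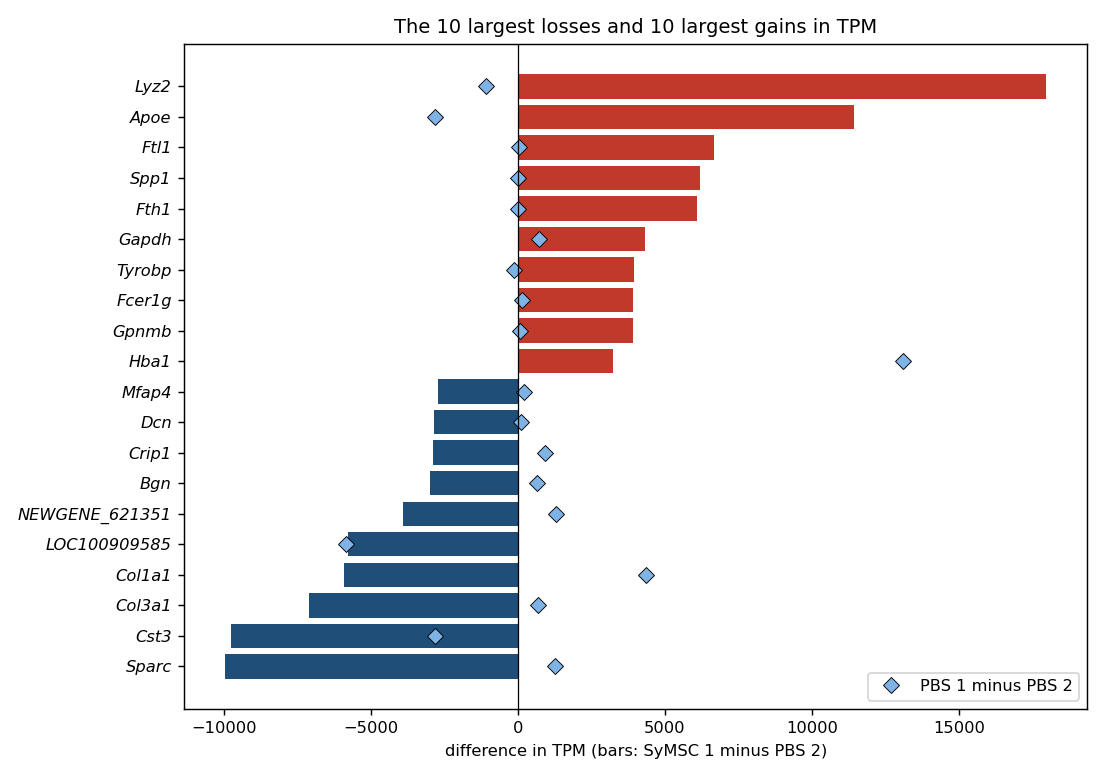
Bars give SyMSC 1 minus PBS 2 in TPM for the 10 genes with the largest loss and the 10 with the largest gain; diamonds give PBS 1 minus PBS 2. Lyz2 gained the most and Sparc lost the most, and the diamonds of Hba1 and LOC100909585 lie as far out as their bars or farther.

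In the lists that follow, a count names the genes beyond both PBS libraries unless PBS 2 is given as the reference, and it is to be read beside the 10.6% higher and 12.7% lower of all genes taken up. Members under 5 TPM in PBS 2 were taken up only through SyMSC 1, which in itself raises counts of higher genes and medians. Members under 5 TPM in SyMSC 1 were taken up only through PBS 2, with the reverse effect. Chemokine genes went both ways, within the CXC type as within the CC type. Of 27 chemokine genes 24 reached 5 TPM, 12 of them were higher and 7 lower than in PBS 2, and 11 and 6 kept this beyond both PBS libraries. Cxcl2, Cxcl3 and Cxcl6, neutrophil attractants that act through the receptor CXCR2, had the highest ratios to PBS 2 in the list. Cxcl2 was at 316 TPM in SyMSC 1, 4.65 TPM in PBS 2, 0.23 TPM in PBS 1 and 86.8 TPM in AdMSC 1. Cxcl3 was at 166, 1.99, 0.37 and 84.0 TPM, and Cxcl6 at 91.7, 1.19, 1.15 and 28.3 TPM. Both injected libraries were above both PBS libraries for each, and SyMSC 1 was above AdMSC 1. These genes were picked by their ratio of SyMSC 1 to PBS 2, which in itself favours a high SyMSC 1. Among CC chemokines, which attract monocytes and other leukocytes, Ccl3 was at 696 TPM against 30.7 and 12.2 TPM, Ccl2 at 482 TPM against 70.9 and 86.5 TPM, and Ccl6 at 1086 TPM against 62.4 and 39.2 TPM. Members outside the rule for named genes are given here because they run the other way: Cxcl12 (29.8 against 235 and 210 TPM), which stromal cells make to hold leukocytes and progenitors, Ccl21 (49.3 against 427 and 204 TPM), Ccl24, Ccl11, Cxcl9 and Cx3cl1.

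Promoters of Cxcl1, Cxcl2 and Cxcl6 are shown because these genes of 1 chemokine cluster all stood at least 4-fold higher and share a motif. Those of Il6 and Ccl20 are shown because they carry it singly. Each line gives 60 bases, 5′ to 3′, from 110 to 51 bases before the gene's start in RefSeq (GRCr8), and capitals mark matches to the kappa B consensus, the motif bound by NF-kB.
Cxcl1 (chr14:17479372-17479431, minus strand): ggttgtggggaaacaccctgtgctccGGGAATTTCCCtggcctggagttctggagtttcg
Cxcl2 (chr14:17467306-17467365, minus strand): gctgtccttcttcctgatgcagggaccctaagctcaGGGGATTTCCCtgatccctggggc
Cxcl6 (chr14:17596468-17596527, minus strand): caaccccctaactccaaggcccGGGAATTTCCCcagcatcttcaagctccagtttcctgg
Il6 (chr4:5894626-5894685, minus strand): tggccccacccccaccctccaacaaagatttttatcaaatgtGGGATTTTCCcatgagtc
Ccl20 (chr9:91837049-91837108, plus strand): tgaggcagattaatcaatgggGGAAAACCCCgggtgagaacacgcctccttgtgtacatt

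In Cxcl1, Cxcl2 and Cxcl6 the capitals hold 2 overlapping matches, and they begin 84, 74 and 88 bases before the start. In Il6 and Ccl20 there is 1 match, beginning 68 and 89 bases before it. Of the chemokine and acute cytokine genes that were higher beyond both PBS libraries, 16 matched a RefSeq promoter by gene ID. In 6 of these the motif stood on either strand between 250 bases before and 50 bases after the start: Cxcl1, Cxcl2, Cxcl6, Ccl7, Ccl20 and Il6. Cxcl3, of the same run of neighbours as Cxcl1 and Cxcl2, was not among the 6, for lack of either a matched promoter or the motif.

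Across the transcriptome the motif was only somewhat more frequent in the higher genes. It stood in 13.7% of 278 promoters of genes at least 4-fold higher beyond both PBS libraries, in 11.0% of 300 promoters of genes at least 4-fold lower, in 9.91% of 8669 promoters of all genes at 5 TPM or more, and in 7.60% of the 27457 promoters in the table. The AP-1 letters TGANTCA, the motif of FOS and JUN dimers, differed more between the groups, at 12.6%, 5.67%, 4.88% and 7.33%. The TATA box letters TATAAA were in 14.7% of the higher, 12.7% of the lower and 6.85% of all promoters of genes at 5 TPM or more, and in 14.3% of the promoters in the table. The interferon-stimulated response element was in 4.68%, 3.33%, 3.17% and 3.77% and the core letters of the hypoxia motif, ACGTG, in 21.2%, 14.7%, 26.2% and 19.7%. Median GC content differed too (55.7%, 58.2% and 61.0%), and its part in these shares was not tested. All motifs were read on both strands, and a match describes the letters alone.

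A promoter with the AP-1 letters and one with the interferon element are shown, with those matches in capitals, because their genes recur below. The Mmp13 line runs from 110 to 51 bases and the Ifit3 line from 70 to 11 bases before the start.
Mmp13 (chr8:12782719-12782778, plus strand): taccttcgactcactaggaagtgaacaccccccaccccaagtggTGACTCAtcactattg
Ifit3 (chr1:241527256-241527315, plus strand): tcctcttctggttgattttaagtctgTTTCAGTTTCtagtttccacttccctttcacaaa

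Cytokines and growth factors of acute inflammation had a median log2 ratio of 2.43 over the 17 of 25 matched genes that reached 5 TPM, against 0.02 over all genes taken up, and 13 of the 17 were higher beyond both PBS libraries. Nos2, which encodes inducible nitric oxide synthase, was at 234 TPM in SyMSC 1, 1.48 TPM in PBS 2, 0.48 TPM in PBS 1 and 81.9 TPM in AdMSC 1. Osm, a cytokine of the interleukin 6 family, was at 329 TPM against 6.91 and 4.05 TPM, with 141 TPM in AdMSC 1. Il1b was at 176 TPM against 5.98 and 3.67 TPM, and the gene of its natural antagonist, Il1rn, at 149 TPM against 6.78 and 5.13 TPM. The agonist and the antagonist thus stood higher by like log2 ratios, 4.66 and 4.27. Il6 was at 58.4 TPM against 1.67 and 1.06 TPM. Arg1, which encodes an arginase that uses the same substrate as nitric oxide synthase, was at 128 TPM against 6.22 and 6.66 TPM, with 141 TPM in AdMSC 1. Tnfaip6, a hyaluronan-binding protein gene induced in inflamed joints, was at 115 TPM against 39.2 and 42.4 TPM. Tnf and Il10 did not reach 5 TPM in SyMSC 1 or PBS 2. Hbegf, which encodes a growth factor of the EGF family, went the other way, at 24.7 TPM against 97.0 and 98.3 TPM, and so did Il33 (10.1 against 108 and 101 TPM), which is outside the rule for named genes.

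Genes of mature neutrophils had the largest median of the 50 lists, 5.27 against PBS 2 and 5.26 against PBS 1. Of 19 such genes 16 reached 5 TPM, and 15 of these were higher beyond both PBS libraries. The list's summed level was 0.689% of TPM in SyMSC 1, 0.0367% in PBS 2, 0.0446% in PBS 1 and 0.390% in AdMSC 1. S100a8 and S100a9 encode the calcium-binding proteins that fill the neutrophil's cytosol. S100a9 was at 1521 TPM in SyMSC 1, 27.8 TPM in PBS 2, 96.7 TPM in PBS 1 and 845 TPM in AdMSC 1, and S100a8 at 1149, 30.7, 109 and 628 TPM. The receptor for the growth factor G-CSF, Csf3r, was at 538, 11.7, 4.73 and 418 TPM, and the decoy receptor for interleukin 1, Il1r2, at 423, 8.45, 2.38 and 216 TPM. For each of these the injected libraries lay far above both PBS libraries. Stfa2, a stefin gene, reached the largest ratio of all named genes, 794 TPM against 7.28 and 3.81 TPM (log2 ratio 6.59), but it belongs to a family of near-identical copies among which reads can be divided.

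Neutrophil granule genes, which are transcribed in precursors in the marrow and fall silent as the cell matures, behaved differently. Their median log2 ratio was 1.97 against PBS 2 and 0.22 against PBS 1, since PBS 1 itself was high (median of PBS 2 over PBS 1, -1.77). Of 12 members at 5 TPM, 10 were higher than in PBS 2 and 4 beyond both PBS libraries: Mmp8, Lcn2, Pglyrp1 and Mmp9. Mmp8 was at 81.3 TPM in SyMSC 1, 2.25 TPM in PBS 2, 7.68 TPM in PBS 1 and 16.4 TPM in AdMSC 1. Lcn2, an iron-chelating antibacterial protein gene, was at 463, 48.7, 57.7 and 131 TPM. Ngp was at 32.3 TPM in SyMSC 1, 5.97 TPM in PBS 2, 80.8 TPM in PBS 1 and 10.6 TPM in AdMSC 1. The defensin genes Np4 and Defa5 were also highest in PBS 1 and next in SyMSC 1, at 36.3, 12.1, 82.1 and 10.3 TPM and at 35.0, 10.1, 54.2 and 8.40 TPM. For Ngp, Np4, Defa5, Camp and RatNP-3b, PBS 1 was the highest of the 4 libraries. Erythroid and platelet genes had a median of 0.64 against PBS 2 and -0.62 against PBS 1, and 0 of 9 members at 5 TPM were beyond both PBS libraries. The haemoglobin genes Hba1, Hba2, Hbb and Hbb-b1 were highest in PBS 1 and next in SyMSC 1, and Hba2 was at 3489 TPM in SyMSC 1, 2240 TPM in PBS 2, 5947 TPM in PBS 1 and 1673 TPM in AdMSC 1. A further haemoglobin row, LOC689064, was lowest in PBS 1, at 104, 111, 0.12 and 70.7 TPM, and the platelet gene Pf4 was highest in SyMSC 1, at 80.4, 54.2, 47.0 and 53.4 TPM. What part blood or marrow in the tissue had in the granule values was not tested.

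**Figure D3:**
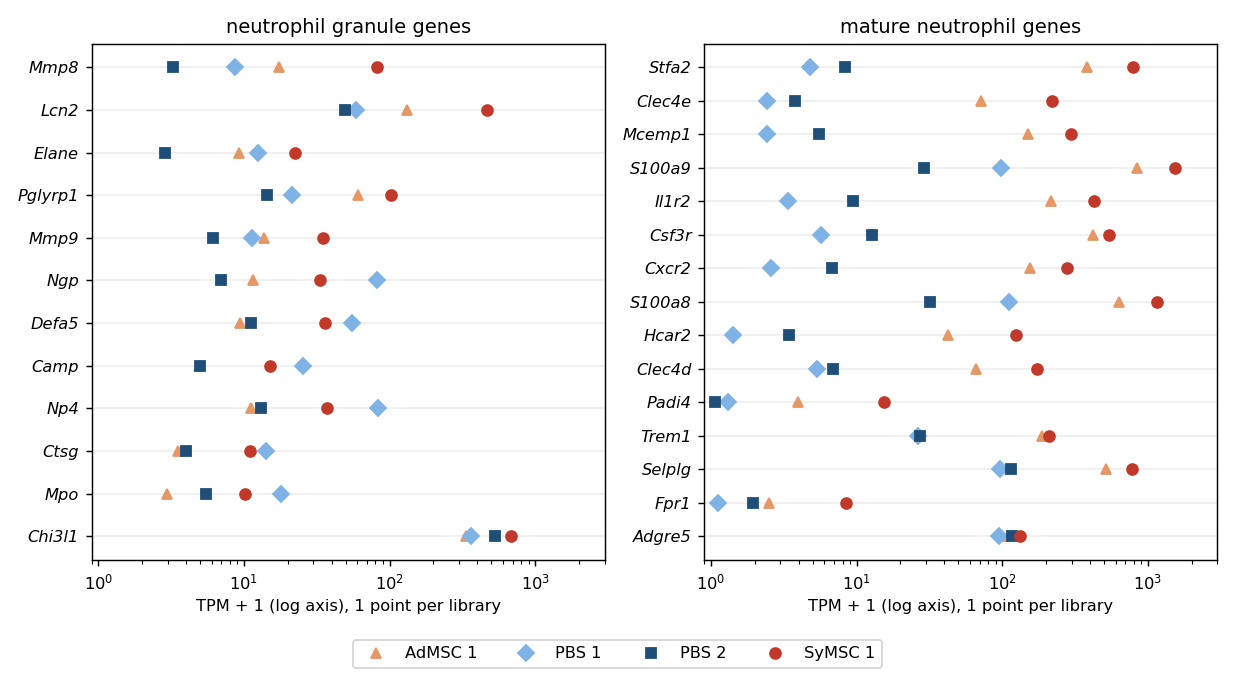
TPM + 1 on a log axis, 1 point per library, for the neutrophil granule genes (left) and 15 of the 16 mature neutrophil genes (right) at 5 TPM or more, ordered by the ratio of SyMSC 1 to PBS 2. On the right SyMSC 1 lies highest in every row; on the left PBS 1 exceeds SyMSC 1 for Ngp, Defa5, Camp, Np4, Ctsg and Mpo.

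General monocyte and macrophage genes were higher in 18 of 20 members, 16 of them beyond both PBS libraries, with a median log2 ratio of 1.71 against PBS 2 and 1.86 against PBS 1. Itgam, an integrin chain of myeloid cells, was at 136 TPM against 15.6 and 17.2 TPM, and Fcgr1a, the high-affinity receptor for immunoglobulin G, at 633 TPM against 76.7 and 63.4 TPM. The adaptor gene Tyrobp was at 4848 TPM against 881 and 767 TPM. Markers of resident synovial macrophages did not share this: of 19, 4 were higher and 2 lower beyond both PBS libraries. Their median was -0.51 against PBS 2 and -0.10 against PBS 1. Cd163, a haemoglobin scavenger receptor, was at 11.4 TPM in SyMSC 1, 19.7 TPM in PBS 2, 13.4 TPM in PBS 1 and 9.55 TPM in AdMSC 1. Cx3cr1, the fractalkine receptor, stood at 68.9 TPM against 7.15 and 4.40 TPM, and Siglec1, a sialic acid receptor, at 67.2 TPM against 18.4 and 17.4 TPM. Gas6, a ligand that bridges dying cells to phagocytes, was at 193 TPM against 1046 and 828 TPM.

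Genes of lipid-associated macrophages were divided, with 7 higher and 2 lower beyond both PBS libraries of 20. Spp1 had a log2 ratio of 5.05. Gpnmb was at 4273 TPM against 367 and 424 TPM, Fabp5, a fatty acid carrier gene, at 1287 TPM against 117 and 121 TPM, and Plin2, which encodes a coat protein of lipid droplets, at 607 TPM against 61.0 and 52.3 TPM. In all 4 the PBS libraries differed little from each other. Fabp4, the fatty acid carrier of adipocytes and capillaries, was at 206 TPM in SyMSC 1, 1198 TPM in PBS 2 and 469 TPM in PBS 1. Cd9, outside the rule for named genes, was also lower, at 127 TPM against 387 and 402 TPM. Trem2, likewise outside that rule, was within 2-fold of PBS 2, at 293.5 TPM against 203 and 167 TPM. Osteoclast genes, which overlap with these lists, were 3 higher and 1 lower beyond both PBS libraries among 9 at 5 TPM. Oscar, a costimulatory receptor, was at 85.1 TPM against 1.74 and 1.03 TPM, while Ctsk, the collagen-degrading cathepsin of osteoclasts and fibroblasts, was at 60.2 TPM against 477 and 572 TPM.

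Lymphoid and other leukocyte lists were smaller. Of 18 T and NK cell genes 12 reached 5 TPM, and 7 were higher beyond both PBS libraries (median 1.70). Of these 7, Cd8a, Cd8b, Cd5, Klrb1a and Ncr1 were under 5 TPM in PBS 2. They were taken up only through SyMSC 1, so the count and the median are a description. Cd8a was at 126 TPM in SyMSC 1, 4.72 TPM in PBS 2, 4.19 TPM in PBS 1 and 109 TPM in AdMSC 1, and Cd8b at 60.3, 3.25, 5.37 and 54.9 TPM. Cd2 was at 105 TPM against 11.2 and 10.2 TPM, and Cd5 at 7.61 TPM against 0.56 and 2.49 TPM. The T cell receptor genes Cd3d, Cd3e and Cd3g, of which Cd3d and Cd3g were higher than in PBS 2 and Cd3g beyond both PBS libraries, were at 8.04, 11.1 and 18.7 TPM in SyMSC 1, and the cytotoxic genes Gzma, Gzmb, Prf1 and Nkg7 did not reach 5 TPM in SyMSC 1 or PBS 2, all outside the rule for named genes. Cd4, also outside that rule, did not stand higher: it was at 125 TPM in SyMSC 1, 205 TPM in PBS 2, 174 TPM in PBS 1 and 119 TPM in AdMSC 1. In rats CD4 and CD8 occur on macrophages as well as on T cells. In the B and plasma cell list 1 of 6 members was higher beyond both PBS libraries, Blnk, an adaptor of the B cell receptor that macrophages also express (77.6 TPM against 18.3 and 17.9 TPM). Among dendritic cell and MHC class II genes 5 of 13 were higher and none lower, led by the integrin gene Itgax at 55.2 TPM against 3.22 and 7.25 TPM. All 5 mast cell genes at 5 TPM were lower beyond both PBS libraries. Of these, Cpa3, Tpsab1, Tpsb2 and Gata2 were under 5 TPM in SyMSC 1 and were taken up only through PBS 2, so this count is a description. The other matched members of the list did not reach 5 TPM in SyMSC 1 or PBS 2. The protease gene Cma1 was at 5.53 TPM against 41.6 and 30.6 TPM, and Cpa3 at 4.10 TPM against 23.9 and 23.4 TPM, with 15.3 TPM in AdMSC 1.

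Innate receptors stood higher together: 15 of 18 Toll-like and C-type lectin receptor genes were higher beyond both PBS libraries, with a median of 1.82. Clec4e, a receptor for mycobacterial glycolipid and for a protein of dying cells, was at 220 TPM against 2.77 and 1.42 TPM. Clec7a, the beta-glucan receptor, was at 473 TPM against 30.6 and 26.5 TPM, and Tlr1 at 44.4 TPM against 1.75 and 1.03 TPM. In the inflammasome and cell death list 7 of 13 were higher, among them the sensors Nlrp3 (21.3 against 3.66 and 3.01 TPM) and Nlrc4 (14.6 against 1.30 and 1.02 TPM). NF-kB subunits and feedback genes had 8 of 19 higher and none lower. Their members differed: Sod2, a mitochondrial superoxide dismutase and NF-kB target, was at 383 TPM against 90.4 and 109 TPM, and Rel at 13.1 TPM against 2.53 and 2.74 TPM, while Rela, outside the rule for named genes, was at 79.9 TPM against 77.3 and 77.1 TPM.

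Early response genes depended on the PBS library, with a median of 0.27 against PBS 2 and 1.23 against PBS 1, and 7 of 19 were higher beyond both. The partners of AP-1 that stood apart were Fosl1, at 12.8 TPM against 0.74 and 2.06 TPM, and Fosl2, at 45.2 TPM against 4.63 and 7.26 TPM. Junb was at 969 TPM against 248 and 171 TPM. Fos itself, outside the rule for named genes, was at 635 TPM in SyMSC 1, 522 TPM in PBS 2, 180 TPM in PBS 1 and 278 TPM in AdMSC 1, so the PBS libraries differed from each other by more than SyMSC 1 did from PBS 2.

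Interferon response genes were split, with a median of 0.14 against PBS 2 and -0.20 against PBS 1, and with 5 higher and 4 lower beyond both PBS libraries of 27. The Ifit genes, which encode sensors of foreign RNA, included the highest: Ifit3 was at 345 TPM in SyMSC 1, 13.99 TPM in PBS 2, 30.2 TPM in PBS 1 and 117 TPM in AdMSC 1, and Ifit1 at 38.1, 1.08, 0.15 and 15.5 TPM. Ifit1bl was at 161, 2.80, 2.40 and 91.2 TPM, though it too has close copies. Oasl was at 67.1 TPM against 7.77 and 12.96 TPM. Classical members such as Mx1 (7.35, 5, 21.3 and 4.79 TPM) and Ifi44 (9.09, 32.3, 38.3 and 11.3 TPM), named here after their values were seen, did not stand with the Ifit genes.

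Transcription factors of myeloid cells were higher in 9 of 17 members beyond both PBS libraries (median 1.30). Cebpb, a factor of emergency granulocyte production and macrophage activation, was at 1073 TPM against 106 and 47.2 TPM, and Cebpa at 91.8 TPM against 19.0 and 9.83 TPM. Batf and Cebpe followed, at 32.7 against 6.96 and 3.59 TPM and at 13.4 against 2.49 and 2.37 TPM. In the list of checkpoint and suppressive mediators 8 of 11 genes at 5 TPM were higher beyond both PBS libraries. Lilrb4, an inhibitory receptor of myeloid cells, was at 1144 TPM against 107 and 106 TPM, and Havcr2 at 7.14 TPM against 1.05 and 1.49 TPM. Eicosanoid genes had 4 higher and 1 lower of 12. Ptgs2, the inducible cyclooxygenase, was at 33.3 TPM against 2.94 and 3 TPM, and Ltc4s, which makes the leukotriene of mast cells and macrophages, at 10.9 TPM against 66.7 and 53.1 TPM.

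Genes of glycolysis and of the response to low oxygen were higher in 24 of 27 members against PBS 2 and in 20 beyond both PBS libraries, beside 12.9% and 10.6% of all genes taken up, and their median was 1.55. Slc16a3, which exports lactate, was at 319 TPM in SyMSC 1, 8.37 TPM in PBS 2, 11.9 TPM in PBS 1 and 186 TPM in AdMSC 1. The glucose transporter gene Slc2a1 was at 226, 18.0, 18.9 and 196 TPM, and Pfkfb3, which makes the activator of phosphofructokinase, at 145, 13.9, 11.8 and 109 TPM. Egln3, an oxygen-sensing hydroxylase gene, was at 38.4 TPM against 1.88 and 2.02 TPM. Respiratory chain genes stood near equal levels, with 0 of 19 beyond 2-fold and a median of 0.29. Cox4i1, a subunit of cytochrome oxidase, was at 678 TPM against 706 and 598 TPM. None of 23 cytosolic ribosomal protein genes passed 2-fold either (median -0.29), as with Rpl13 at 3587 TPM against 3929 and 3408 TPM. Among common reference genes 2 of 14 were higher beyond both PBS libraries, Pgk1 (611 against 139 and 179 TPM) and Tfrc (26.1 against 5.60 and 7.52 TPM), and Gapdh was higher than in PBS 2 alone by the 2-fold limit.

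Heme, iron and NRF2 target genes had 10 higher and 1 lower beyond both PBS libraries of 20. Hmox1, the heme-degrading enzyme, was at 809 TPM in SyMSC 1, 85.9 TPM in PBS 2, 77.2 TPM in PBS 1 and 1100 TPM in AdMSC 1. The metal-binding metallothionein genes Mt1 and Mt2A were at 2406 TPM against 529 and 435 TPM and at 1969 TPM against 395 and 325 TPM. Another metallothionein gene, Mt3, went the other way, at 0.98 TPM against 18.7 and 32.1 TPM. Cholesterol genes were mostly within 2-fold (4 of 21 higher beyond both PBS libraries). Soat1, which esterifies cholesterol for storage, was at 80.3 TPM against 8.52 and 9.97 TPM. The lysosome list had 7 higher and 2 lower of 24. Ctsz was at 838 TPM against 157 and 142 TPM and Ctsd at 2959 TPM against 885 and 888 TPM.

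Stress lists differed in part. Of 20 genes of the integrated stress and unfolded protein responses 5 were higher beyond both PBS libraries and none lower. Ddit3, which encodes the stress factor CHOP, was at 188 TPM in SyMSC 1, 45.9 TPM in PBS 2, 48.4 TPM in PBS 1 and 66.7 TPM in AdMSC 1, and Ddit4, an inhibitor of the growth kinase mTOR, at 124, 18.7, 18.3 and 80.8 TPM. Heat shock genes had 1 higher and 2 lower of 14, and the small heat shock protein gene Hspb1 was at 127 TPM against 556 and 349 TPM.

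Proliferation genes stood modestly higher. In the mitosis list 19 of 20 were higher than in PBS 2 and 14 beyond both PBS libraries, with a median of 1.64 against PBS 2 and 1.16 against PBS 1. Cdk1, the kinase that drives entry to mitosis, was at 72.2 TPM in SyMSC 1, 17.4 TPM in PBS 2, 23.9 TPM in PBS 1 and 80.2 TPM in AdMSC 1, and Plk1 at 24.2, 3.84, 8.02 and 30.0 TPM. In the DNA replication list 17 of 21 were higher than in PBS 2 and 12 beyond both (medians 1.31 and 1.03). Rrm2, which makes deoxynucleotides, was at 86.2, 14.1, 23.6 and 108 TPM. PBS 1 lay above PBS 2 for each of these 3, and AdMSC 1 above SyMSC 1.

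Fibroblast genes of both layers were lower. Fewer cells of a type, less RNA per cell, or a larger share of TPM taken by other genes cannot be told apart behind a lower level in bulk tissue. In the lining list 8 of 13 genes at 5 TPM were lower and 1 higher beyond both PBS libraries (median -1.69). Htra4, a secreted protease gene, was at 34.8 TPM in SyMSC 1, 671 TPM in PBS 2, 513 TPM in PBS 1 and 43.7 TPM in AdMSC 1, and Clic5 at 4.12, 73.5, 63.3 and 4.10 TPM. Prg4, the defining product of the lining, differed less (log2 ratio -0.62). Has2, a hyaluronan synthase gene, was the member that stood higher, at 33.2 TPM against 9.31 and 10.2 TPM. The hyaluronan list as a whole had 3 higher and 1 lower of 8. In the sublining list 13 of 20 were lower beyond both PBS libraries and none higher (median -2.03). Sfrp2, a Wnt antagonist, was at 7.82 TPM against 214 and 104 TPM, Clec3b, which encodes tetranectin, at 5.50 TPM against 165 and 109 TPM, and Igfbp6 at 47.5 TPM against 819 and 778 TPM.

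The collagen list and the list of matrix glycoproteins and proteoglycans had lower medians, and no member of either list was called higher. Of 18 collagen genes 13 were lower than in PBS 2 and 10 beyond both PBS libraries, with medians of -1.26 against PBS 2 and -1.72 against PBS 1. Col14a1, a collagen that lies on fibril surfaces, was at 18.0 TPM in SyMSC 1, 293 TPM in PBS 2, 254 TPM in PBS 1 and 33.8 TPM in AdMSC 1, and Col6a1 at 170, 719, 1006 and 249 TPM. The row named Col1a2 was low, at 0, 5.09, 3.65 and 1.77 TPM. NEWGENE_621351, among the 10 largest losses at 1417, 5325, 6610 and 1946 TPM, may hold this collagen, which the files do not say. Of 25 matrix glycoprotein and proteoglycan genes 18 were lower beyond both (median -2.14). Ogn, which encodes the small proteoglycan osteoglycin, was at 16.5 TPM against 314 and 438 TPM, and Eln, which encodes elastin, at 39.1 TPM against 563 and 460 TPM.

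Matrix proteases were not lower as a group: 9 of 21 protease and inhibitor genes were higher and 5 lower beyond both PBS libraries. Mmp3, stromelysin, was at 2608 TPM in SyMSC 1, 550.0 TPM in PBS 2, 594 TPM in PBS 1 and 2605 TPM in AdMSC 1. Mmp13, a collagenase, was at 174, 11.0, 22.4 and 118 TPM, and the leukocyte protease gene Adam8 at 135, 5.12, 3.88 and 92.7 TPM. Adamts5, the main aggrecan-cleaving enzyme of mouse cartilage, differed little, at 12.9 TPM against 7.94 and 7.42 TPM. Of the inhibitors, Timp4 was at 2.07 TPM against 32.8 and 19.9 TPM, while Timp1, outside the rule for named genes, was at 4155 TPM against 993 and 1159 TPM. Plasminogen and coagulation genes had 4 higher and 2 lower of 13. Plaur, the urokinase receptor gene, was at 93.9 TPM against 20.5 and 22.9 TPM, and F3, tissue factor, at 7.84 TPM against 34.3 and 21.4 TPM.

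Vessel genes were lower in both layers of the wall. All 15 mural and smooth muscle genes were lower than in PBS 2, 14 of them beyond both PBS libraries, and 12 of 17 endothelial genes were lower beyond both (medians -2.16 and -1.88). Myh11, the smooth muscle myosin gene, was at 11.6 TPM in SyMSC 1, 132 TPM in PBS 2, 84.4 TPM in PBS 1 and 10.3 TPM in AdMSC 1, and Rgs5 of pericytes at 73.0, 573, 620 and 166 TPM. Pecam1 and Emcn, which encode endothelial surface proteins, were at 33.6 TPM against 173 and 145 TPM and at 38.7 TPM against 231 and 218 TPM. In the nerve list 3 of 8 were lower and 1 higher. S100b, a calcium-binding protein gene of Schwann cells, was at 17.8 TPM against 243 and 199 TPM, and Erbb3, a receptor those cells carry, at 22.6 TPM against 6.94 and 6.72 TPM.

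Lists of neighbouring tissues came next, and here the PBS libraries themselves differed, most for muscle and fat. The median log2 ratio of PBS 2 over PBS 1 was -1.59 for muscle and 1.35 for fat. For cartilage and bone it was -0.86, and for tendon and ligament -0.55. Tendon and ligament genes were lower in 10 of 11 beyond both (median -3.28). Tnmd, a tendon membrane protein gene, was at 1.24 TPM in SyMSC 1, 61.2 TPM in PBS 2, 117 TPM in PBS 1 and 0.96 TPM in AdMSC 1. Skeletal muscle genes were lower in 13 of 15 beyond both, with a median of -2.12 against PBS 2 and -3.53 against PBS 1. Myl1 was at 38.1, 185, 452 and 21.1 TPM. Adipocyte genes were lower in 12 of 15 against PBS 2 but in 5 beyond both, with medians of -2.38 and -0.22. Pparg, the master factor of fat cells, was at 3.92, 27.7, 18.8 and 4.72 TPM. Adipoq, outside the rule for named genes, was at 43.3, 195, 39.7 and 33.4 TPM, so PBS 2 alone was high. In the cartilage and bone list 6 of 20 genes reached 5 TPM and 3 were lower beyond both. Acan, which encodes aggrecan, was at 6.59, 25.2, 47.4 and 15.2 TPM and Cytl1 at 1.65, 129, 75.2 and 4.04 TPM, while Col2a1 did not reach 5 TPM. How much of each tissue was taken with the synovium, and its part in these values, was not tested.

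Signalling lists of stroma were mixed. TGF-beta and BMP genes had 5 higher and 7 lower beyond both PBS libraries of 23. Tgfb1 was at 226 TPM against 129 and 131 TPM, the BMP antagonist gene Grem1 at 25.7 TPM against 1.65 and 2.39 TPM, and Bmp4 at 3.50 TPM against 24.6 and 17.9 TPM. Wnt genes were lower in 6 of 14 and higher in none, with the secreted antagonist gene Dkk3 at 10.3 TPM against 90.7 and 117 TPM. Insulin-like growth factor genes were lower in 7 of 11 and higher in 1 (median -1.26). Igf1 was at 147 TPM in SyMSC 1, 354 TPM in PBS 2, 437 TPM in PBS 1 and 201 TPM in AdMSC 1, and the binding protein gene Igfbp7 at 420, 2917, 2363 and 549 TPM. Complement genes had 7 lower and 2 higher beyond both of 19. C4b was at 45.3 TPM against 380 and 221 TPM and the C1 inhibitor gene Serping1 at 286 TPM against 1933 and 1656 TPM. The genes higher were receptors, C3ar1 and C5ar1, which are outside the rule for named genes (80.3 against 22.1 and 21.8 TPM, and 391 against 118 and 115 TPM).

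**Figure D4:**
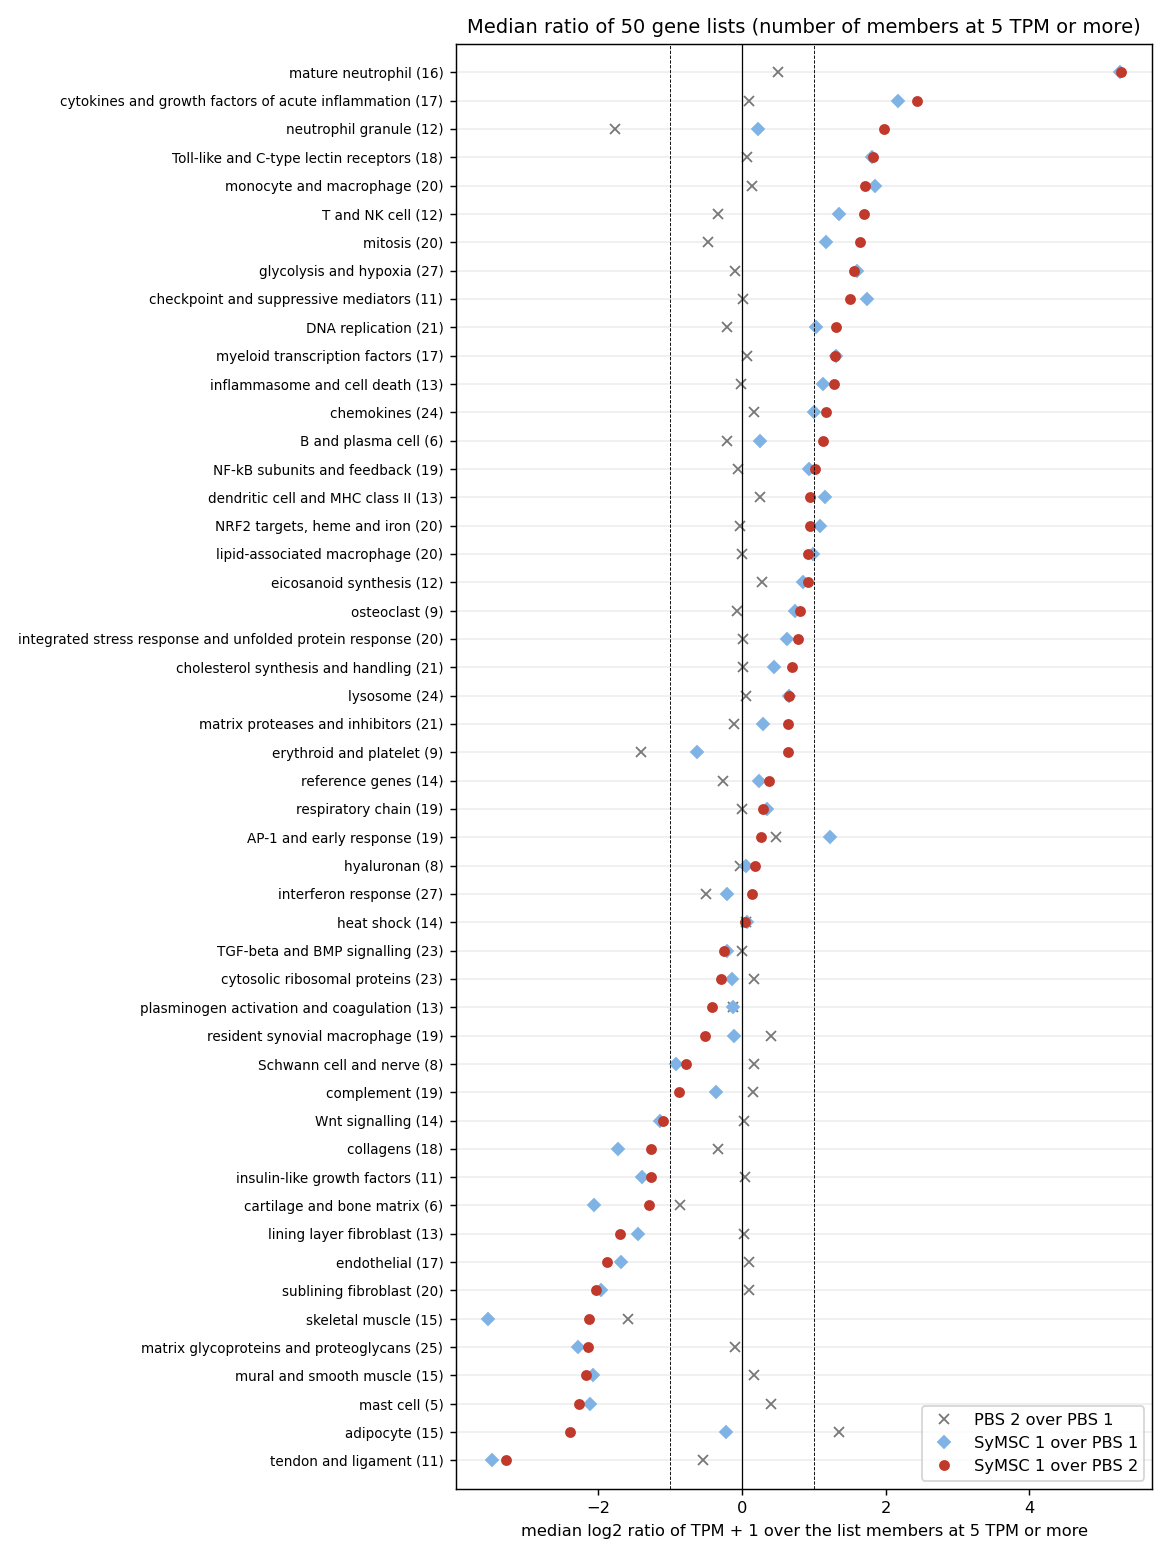
Median log2 ratio of TPM + 1 for each of 50 gene lists over its members at 5 TPM or more (number in brackets): SyMSC 1 over PBS 2 (circles), SyMSC 1 over PBS 1 (diamonds) and PBS 2 over PBS 1 (crosses), with dashed lines at 2-fold. 15 medians reach 1 and 13 reach -1; crosses far from 0 mark the neutrophil granule, skeletal muscle, erythroid and adipocyte lists.

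Among the 12 highest ratios beyond both PBS libraries were Stfa2 (log2 ratio 6.59), Nos2 (6.57), Clec4e (5.87), Cxcl2 (5.81), Cxcl3 (5.80), Mcemp1 (5.75), S100a9 (5.72), Il1r2 (5.49), Ifit1bl (5.42), Cxcl6 (5.40) and Csf3r (5.40). For all 11 of them SyMSC 1 was also above AdMSC 1, but picking genes by a high ratio in SyMSC 1 favours this in itself. The 12 lowest were Cytl1 (-5.61), Angptl1 (-5.61), Sult1a1 (-5.51), C1qtnf3 (-5.28), Mlana (-5.23), Cldn11 (-4.88), Itgbl1 (-4.81), Tnmd (-4.80), Clec3b (-4.67), Uts2r (-4.64), Sfrp2 (-4.61) and Hist2h2aa3 (-4.58). Several are secreted proteins of fibroblasts. Angptl1, an angiopoietin-like gene, was at 2.85 TPM in SyMSC 1, 186 TPM in PBS 2, 185 TPM in PBS 1 and 5.45 TPM in AdMSC 1. C1qtnf3, which encodes a C1q-related secreted protein, was at 1.02, 77.3, 165 and 3.67 TPM. Mlana, best known as a melanocyte antigen, was at 0.13, 41.4, 30.5 and 0.45 TPM, and Cldn11, a tight junction gene, at 1.81, 81.5, 71.0 and 1.30 TPM. Hist2h2aa3, a histone gene of near-identical copies, was listed at 0 in SyMSC 1 and at 23.0, 36.4 and 11.9 TPM in PBS 2, PBS 1 and AdMSC 1.

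**Figure D5:**
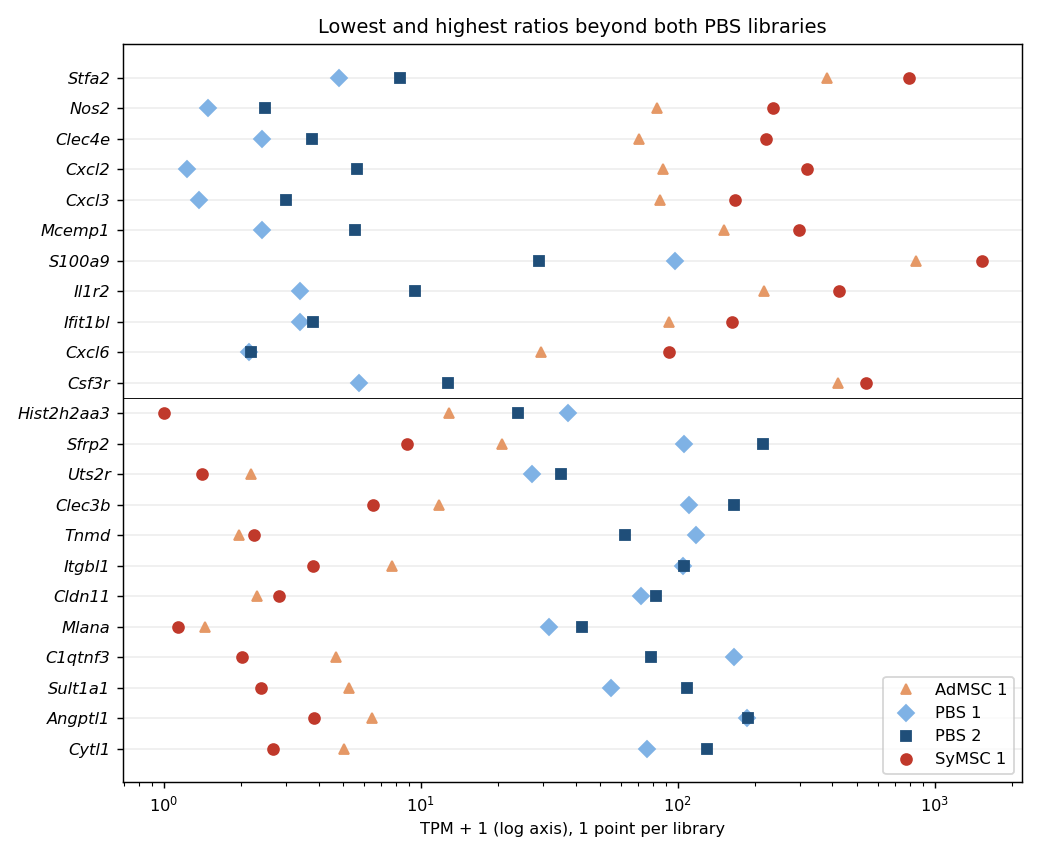
TPM + 1 on a log axis, 1 point per library, for 11 of the 12 highest (above the line) and the 12 lowest ratios of SyMSC 1 to PBS 2 among genes beyond both PBS libraries. Both PBS points lie on the opposite side from SyMSC 1 in every row, apart from each other in some, such as Cxcl2 and S100a9, and AdMSC 1 lies on the side of SyMSC 1 in all rows, though nearer to the PBS points for Hist2h2aa3.

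Of the 1145 genes higher beyond both PBS libraries, 51 were under 1 TPM in both PBS libraries and at 5 TPM or more in SyMSC 1. Among them Sirpd, of a family of myeloid signal-regulatory proteins, was at 45.8 TPM in SyMSC 1, 0.73 TPM in PBS 2, 0.51 TPM in PBS 1 and 19.8 TPM in AdMSC 1. Tarm1, an activating receptor of myeloid cells, was at 21.9, 0.43, 0 and 15.0 TPM, Nlrp12, an innate sensor gene, at 19.8, 0.08, 0.13 and 11.2 TPM and Aqp9, a glycerol and water channel gene, at 16.2, 0.75, 0.29 and 4.86 TPM. The reverse, 5 TPM or more in both PBS libraries and under 1 TPM in SyMSC 1, held for 76 of the 1373 genes lower beyond both. Fam180a was at 0.98, 35.7, 57.0 and 3 TPM, and Tnfsf10, which encodes the death ligand TRAIL, at 0.93, 18.9, 22.0 and 2.83 TPM. As depth is unknown, a value under 1 TPM has no known error.

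Neighbouring genes of the genome were compared next. Runs of at least 3 neighbouring measured genes, all higher or all lower beyond both PBS libraries, numbered 43 with 135 genes, which is 5.36% of the genes beyond both, and 26 of the runs were higher and 17 lower. Neighbours that are copies of one another can also share reads. Higher runs were mostly families of leukocyte genes. The chemokine genes Cxcl2, Cxcl1 and Cxcl3 had log2 ratios of 5.81, 3.69 and 5.80, and Ccl6, Ccl3 and Ccl4 had 4.10, 4.46 and 1.42. The Ifit run of Ifit3, Ifit1bl and Ifit1 had 4.53, 5.42 and 4.23, and the Schlafen genes Slfn2, Slfn1, Slfn4 and Slfn3 had 1.57, 3.30, 3.85 and 1.27. Receptors of myeloid cells formed others: Trem3, Trem1 and Ncr2 (3.81, 2.95 and 2.76), Clec4a1, Clec4a3 and Clec4a2 (1.47, 1.75 and 3.22), and Cd300a, Cd300lb and Cd300ld (2.78, 2.76 and 3.79).

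Among lower runs was a group of small leucine-rich proteoglycan genes and a relative, Ogn, Omd, Aspn and Ecm2, with log2 ratios of -4.17, -3.11, -3.17 and -3.63. A second such group, Dcn, Lum and Kera, had -1.20, -1.21 and -2.87. The collagen genes Col3a1 and Col5a2 with their neighbour Gulp1 had -1.86, -1.27 and -1.67. The vascular potassium channel genes Kcnj8 and Abcc9, whose products form 1 channel, had -2.14 and -2.16 beside Ldhb at -2.20. Homeobox genes, which carry limb position, appeared as Hoxd10, Hoxd9 and Hoxd8 (-1.14, -1.55 and -1.43) and as Hoxa7 and Hoxa9 (-1.58 and -2.25). Some runs joined genes of different families, such as Tyrobp, Hcst and Nfkbid (2.46, 1.16 and 3.18), of which the first pair encode adaptors of leukocyte receptors.

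AdMSC 1 against PBS 1 shares no library with SyMSC 1 against PBS 2. It separated 11.1% of 10839 genes in the higher and 12.3% in the lower direction. The log2 ratios of the pairs differed by at least 2 in 126 genes, 87 with the higher ratio in the SyMSC pair and 39 with the lower. In 101 of the 126 (80.2%) the 2 PBS libraries themselves differed at least 2-fold, beside 1.99% of all genes taken up. The difference between the PBS libraries is a part of the difference between the pairs, so a high share was built in. The neutrophil granule list had a median of 1.97 in the SyMSC pair and -1.23 in the AdMSC pair, while the mature neutrophil list had 5.27 and 4.12. Other genes with large differences had values near 0 in a single library, as for Echs1 at 10.5 TPM in SyMSC 1, 25.6 TPM in PBS 2, 0.02 TPM in PBS 1 and 11.2 TPM in AdMSC 1, and Hprt1 at 17.3, 10.3, 26.1 and 1.22 TPM.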

How the data were processed

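The deposited table gives TPM with 2 decimals, per the file header, for 17899 rat genes in 4 libraries, and all columns have the same sum. Per the labels' protocols, RNA was purified with an RNeasy kit, selected on oligo-dT beads, reverse transcribed from random primers, given a second strand with dUTP and sequenced on a BGISEQ-500. The submitters' processing notes name HISAT2 2.0.4 and the build Rnor_6.0 without saying what each did. How reads were counted, on which annotation, whether by strand and whether human reads were set aside: not given in the sources used here.

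Ratios were taken on log2(TPM + 1) with Python 3.11.15, pandas 2.3.3 and numpy 2.4.6. A gene was called at a ratio of 2 with at least 5 TPM on the higher side. As each group has 1 library, no test was made. TPM keeps no depth, so no counting interval can be given, and where some genes take a larger share the others take a smaller one. 50 lists held 963 gene entries, of which 951 were found, and were described by counts and medians. Members that reached 5 TPM through 1 high library had to differ, so list counts are a description. The rule for the genes taken up, the lists and the comparisons were chosen with earlier results of these data known. Genes named were the 12 highest and 12 lowest ratios beyond both PBS libraries, the 10 largest gains and losses in TPM, up to 4 members a list (those beyond both PBS libraries with the largest ratio, or else the most abundant), a short preset list of joint genes, runs of neighbours, genes crossing detection and genes differing between the pairs. Others are marked as outside the rule or named as list members. A few genes falling under it are not reported here.

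Neighbour order came from a RefSeq gene table (GRCr8), in which 16718 gene IDs were found, and promoters (250 bases before to 50 after the start) from RefSeq (GRCr8), with 8669 of 10827 genes matched. Alternatives were a pseudocount of 0.1, median-ratio (RLE) and upper-quartile scaling, PBS 1 or the mean of both PBS libraries in place of PBS 2, no filter, a limit of 20 TPM and a ratio of 4.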

Additional observations from a re-analysis of the deposited data

Results flagged for a closer look

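The neutrophil granule list had a median log2 ratio of 1.97 in SyMSC 1 over PBS 2 and -1.23 in AdMSC 1 over PBS 1, so its direction was opposite in the pairs. The same held for the granule and defensin genes Ngp (2.25 and -2.82), Np4 (1.51 and -2.88), RatNP-3b (1.44 and -2.69), Defa5 (1.70 and -2.55) and Camp (1.61 and -2.37). For each of these 5 genes PBS 1 was the highest library, and the haemoglobin genes Hba1, Hba2, Hbb and Hbb-b1 were also highest in PBS 1, while LOC689064, a further haemoglobin row, was lowest there. Echs1, a gene of mitochondrial fatty acid oxidation, had -1.21 in the SyMSC pair and 3.57 in the AdMSC pair, with a value of 0.02 TPM in PBS 1. Each pair holds 1 library on each side, and the difference was not tested.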

How the results depend on the processing

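Counts were most affected by the limits. At a ratio of 4, 440 genes were higher and 548 lower in SyMSC 1 than in PBS 2, and 381 and 417 were so beyond both PBS libraries. With at least 20 TPM in either library, 888 were higher, 874 lower and 743 lower beyond both. The other alternatives left each count within 1.5 times its value. Of 342 named genes past the ratio of 2, 342 kept it with a pseudocount of 0.1 and with RLE scaling, 340 with upper-quartile scaling, 336 with the mean of the PBS libraries and 334 with PBS 1. Direction turned with PBS 1 for Camp (-0.74), Defa5 (-0.62), Ngp (-1.30), Np4 (-1.16), RatNP-3b (-1.54), Echs1 (3.50) and LOC100909585 (0.29), and with the mean for RatNP-3b (-0.052) and Echs1 (1.15). The cause was not tested. Scaling moved the median log2 ratio of all genes taken up from 0.02 to 0.09 (RLE) or -0.01 (upper quartile). No paired analysis was possible because the injected and PBS groups hold 1 library each in the comparison. The labels do not say that libraries with the same title prefix share an animal.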
